A study of Mus musculus with 6 samples.

Results

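Cytosolic ribosomal protein genes were the 84 of 32285 gene rows whose symbol names a protein of the large (Rpl, Rplp) or small (Rps, Rpsa) ribosomal subunit, chosen by symbol alone and without pseudogene rows that end in -ps. There were 52 large-subunit and 32 small-subunit genes, spread over 19 chromosomes, with 4 on the X chromosome. Their UMIs, the molecules counted after removal of amplification copies, were followed by library, by cell type, along neutrophil maturation, by single gene and between genotypes. One member, Rpl10l, had no UMI in any library, 2 more (Rpl39l with 125 UMIs and Rpl3l with 347) had under 1000, and the other 81 had at least 1000.

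Single cells came from mice bearing tumors of EMT6, a mouse mammary carcinoma line. The 6 libraries were 1 each of marrow enriched for hematopoietic progenitors, spleen selected for CD45 and tumor selected for CD45, from animals labelled WT (the BALB/c strain) and from animals labelled Cysltr1 KO, after the gene of a receptor for cysteinyl leukotrienes. Each library pooled 3 mice, so no combination of tissue and genotype had a replicate, and no test between groups was made. Age, sex, the time of tumor growth and the background strain of the KO animals are not given in the labels, and every group, controls included, bore a tumor.

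Ribosomal proteins are made in near equal numbers, since each ribosome holds a single copy of most of them. Their mRNAs begin with a terminal oligopyrimidine (TOP) tract, a run of C and T bases through which growth signals of the mTOR pathway control their translation together with that of elongation factors. In the neutrophil lineage, proliferating promyelocytes make the azurophil granule proteins, myelocytes, which still divide, make those of the secondary granules, and later stages mature without dividing.

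The targeted gene went against the labels in 2 tissues. Cysltr1 (chrX:106574346-106603679, minus strand, mm10) stood at 4.79 CPM (UMIs scaled to the same total in each group, 335 UMIs) in marrow labelled WT and 24.6 CPM (1070 UMIs) in marrow labelled Cysltr1 KO. In spleen it stood at 6.69 CPM (243 UMIs) and 33.3 CPM (1209 UMIs), and in tumor at 10.1 CPM (646 UMIs) and 7.47 CPM (362 UMIs), in the same order. The labels do not say which part of the gene was deleted, and UMIs from a part that was kept would check nothing. All comparisons are therefore between libraries by their labels.

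The 6 libraries kept 5036 to 8319 cells, with medians of 2484 to 12763.5 UMIs a cell, and marrow labelled WT was the deepest. Pairs of libraries shared 39 to 99 cell barcodes. Cell types were set by gates, each asking for at least 3 of a list of known marker genes that are not ribosomal. A cell went to the type with the most markers. Between 7.40% and 37.3% of kept cells had too few markers or a tie and were given no type. Another 0.676% to 11.3% were set aside as mixed, with at least 3 markers of both lymphoid and myeloid or of both immune and non-immune types. Both had the highest values in tumor. Ribosomal protein genes have many near-identical processed copies, so reads from a copy and from its parent may have been split or dropped before counting. Rows ending in -ps held 0.003% to 0.006% of UMIs.

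Promoter sequences are shown for the genes on which the results turn, those whose level was lowered least in marrow neutrophils (Rps9, Rps27), 3 of those among the 5 largest falls in at least 1 marrow library (Rpl10a, Rpl14, Rpl36al) and 2 copies with a pattern of their own (Rps27l, Rpl3l). Each line gives the 50 bases from 30 before to 20 after an annotated start on the gene's strand, from RefSeq for GRCm38.p6. Capitals mark the longest run of C or T. Where a gene had several annotated starts, the one with the longest such run was taken, for members and other genes alike.
Rps9, chr7:3704011-3704060, plus strand: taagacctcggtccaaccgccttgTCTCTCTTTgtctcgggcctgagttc
Rps27, chr3:90213629-90213678, minus strand: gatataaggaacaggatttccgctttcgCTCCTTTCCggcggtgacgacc
Rpl10a, chr17:28328441-28328490, plus strand: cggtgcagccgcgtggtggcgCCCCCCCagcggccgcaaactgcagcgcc
Rpl14, chr9:120571487-120571536, plus strand: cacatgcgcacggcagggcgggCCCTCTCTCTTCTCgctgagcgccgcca
Rpl36al, chr12:69184048-69184097, minus strand: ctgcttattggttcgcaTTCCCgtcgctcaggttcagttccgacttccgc
Rps27l, chr9:66946056-66946105, plus strand: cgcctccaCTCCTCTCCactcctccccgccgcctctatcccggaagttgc
Rpl3l, chr17:24727796-24727845, plus strand: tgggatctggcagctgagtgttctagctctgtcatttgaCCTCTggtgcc

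A run of at least 8 C or T bases, read on the gene's strand, lay in this window for 32 of the 64 members with a promoter entry, or 50%, and for 6150 of 26961 other genes, or 22.8%. The median longest run was 7.5 bases in members and 5 in other genes. Rps9 and Rps27, with runs of 9 bases, and Rpl14, with 14, passed the limit, whereas Rpl10a with 7, Rpl36al with 5 and Rpl3l with 5 did not. A run of these letters in the window is a description and not a mapped TOP tract. As the start with the longest run was taken, the values also depend on how many starts a gene has.

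Members made up 22.7% of all UMIs in marrow labelled WT and 20.9% in marrow labelled Cysltr1 KO. The spleen libraries stood at 17.5% and 23.5%, those of tumor at 20.1% and 19.3%. Within each library single cells differed far more than libraries did. The middle 50% of cells ran from 3.25% to 29.7% in spleen labelled WT, and cells under 10% made up 37.0% of that library but 19.0% of spleen labelled Cysltr1 KO. In marrow such cells made up 11.1% and 24.9%, and in tumor 34.5% and 36.3%. The library with more low cells was thus the one with the lower share in each tissue.

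**Figure D1:**
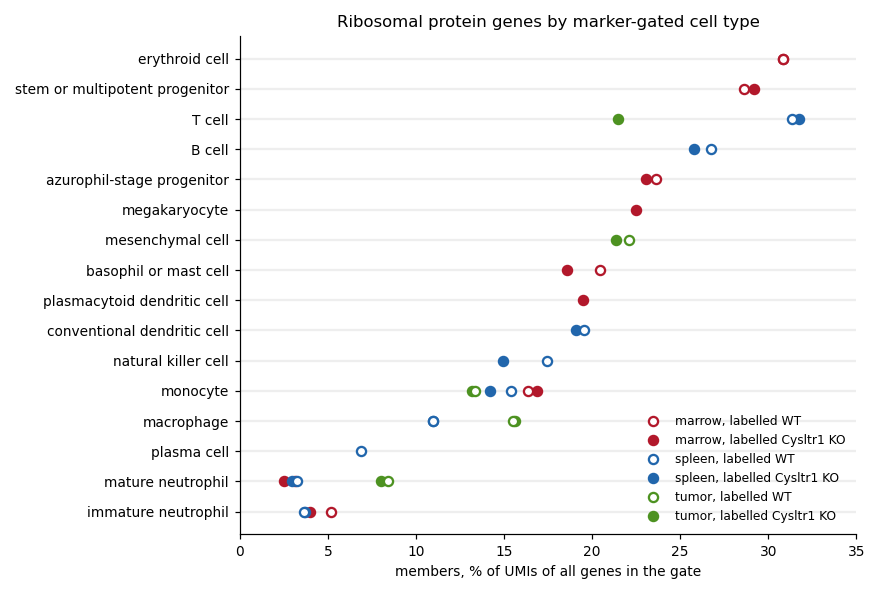
Share of UMIs from the 84 ribosomal protein genes (x axis, percent of summed UMIs) for each gated cell type (y axis) with at least 50 cells, 1 point for each library, coloured by tissue and marked by labelled genotype. Erythroid cells, stem cells and spleen T cells lie near 30%, and neutrophil gates lie below 9% in every tissue.

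Erythroid cells and stem cells of marrow and T and B cells of spleen had the highest shares, and neutrophils of marrow and spleen the lowest. Erythroid cells, which make haemoglobin, stood at 30.8% in both marrow libraries, stem or multipotent progenitors at 28.6% and 29.2%, and spleen T cells at 31.4% and 31.8%, the library labelled WT first. B cells stood at 26.8% and 25.8%, and azurophil-stage progenitors at 23.7% and 23.05%. In each of these gates the libraries of a tissue lay close together.

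Myeloid cells had lower shares that differed by tissue. Monocytes lay lower in order from marrow (16.4% and 16.9%) through spleen (15.4% and 14.2%) to tumor (13.4% and 13.2%). Macrophages, in contrast, stood at 10.96% and 10.95% in spleen and at 15.5% and 15.6% in tumor. Tumor cells with mesenchymal markers, such as collagen genes, which do not separate fibroblasts from mesenchymal carcinoma cells, stood at 22.1% and 21.3%. Natural killer cells stood at 17.4% and 14.9%, well below the T cells of the same libraries.

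Immature neutrophils, defined by secondary granule genes, held 5.17% and 4.003% of UMIs as ribosomal protein UMIs in marrow, with 3.67% and 3.70% for spleen. Mature neutrophils, defined by genes such as Cxcr2 and Retnlg, held 3.13% and 2.48% in the marrow libraries, 3.23% and 2.99% in those of spleen, and 8.43% and 8.02% in those of tumor. The mature gate of tumor thus lay above every neutrophil gate of marrow and spleen.

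That gate also held UMIs of genes listed as markers of other cell types, with monocyte markers at a higher relative level than in marrow. The summed monocyte markers there reached 34.6% and 26.1% of their level in the monocyte gate, macrophage markers 15.5% and 10.9%, and mesenchymal markers 25.4% and 17.0% of their own gates. In the marrow mature gate the azurophil markers stood at 2.20% and 1.498% of their own gate's level and monocyte markers at 9.31% and 7.65%. The source of these UMIs and their part in the neutrophil shares were not tested. Both marrow mature gates had a low median depth, 0.303 and 0.308 of that of their library, with 3 and 2 of their own markers among the 10 leading genes.

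Plasma cells of spleen labelled WT, 67 cells led by immunoglobulin genes with none of the gate's own markers among the 10 leading ones, had a share of 6.88%. Without mitochondrial, haemoglobin, immunoglobulin, S100a8 and S100a9 UMIs, of which immunoglobulins are the secreted product of this cell type, the share was 19.0%. The same step moved mature neutrophils of marrow only to 4.41% and 3.50%. The genes taken out held 63.7% of UMIs in these plasma cells, and 28.9% and 29.0% in mature neutrophils of marrow. Granule and mature marker genes of neutrophils were not among them. Which of the shares abundant transcripts lowered more was therefore not tested.

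Along neutrophil maturation in marrow, the share fell from 29.0% in stem cells to 3.04% in cells with both granule and mature markers (labelled WT), and from 29.4% to 2.33% (labelled Cysltr1 KO). Steps were set by which of the azurophil, secondary granule and mature marker lists reached 1% of a cell's UMIs. In the library labelled WT the 6 steps stood at 29.0%, 24.1%, 15.3%, 5.76%, 3.04% and 3.76%, from stem through azurophil, azurophil and granule, granule, granule and mature to mature only. In the library labelled Cysltr1 KO they stood at 29.4%, 23.8%, 14.1%, 4.72%, 2.33% and 2.75%. As a fold, the largest drop between neighbouring steps came as azurophil genes were lost and granule genes remained, and the last step was slightly higher than the one before in both libraries.

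The step genes are themselves abundant, with S100a8 and S100a9 alone at 26.8% of UMIs in the last step labelled WT, and every abundant transcript lowers other shares. With the step genes and S100 genes taken out, the shares were 29.0%, 25.7%, 20.4%, 10.0%, 5.03% and 5.55% (labelled WT) and 29.5%, 25.8%, 19.4%, 8.40%, 3.98% and 4.15% (labelled Cysltr1 KO). The fall from the azurophil to the mature step was then 4.63-fold and 6.22-fold, in place of 6.40-fold and 8.66-fold. In molecules per cell, the median count of ribosomal protein UMIs was 3742 at the azurophil step and 119 at the mature step labelled WT, and 2188 and 48 labelled Cysltr1 KO. All other UMIs together went from 12334 to 3549 a cell in the library labelled WT, a much smaller drop. Fewer molecules per cell and a lower capture of molecules cannot be told apart in such counts.

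**Figure D2:**
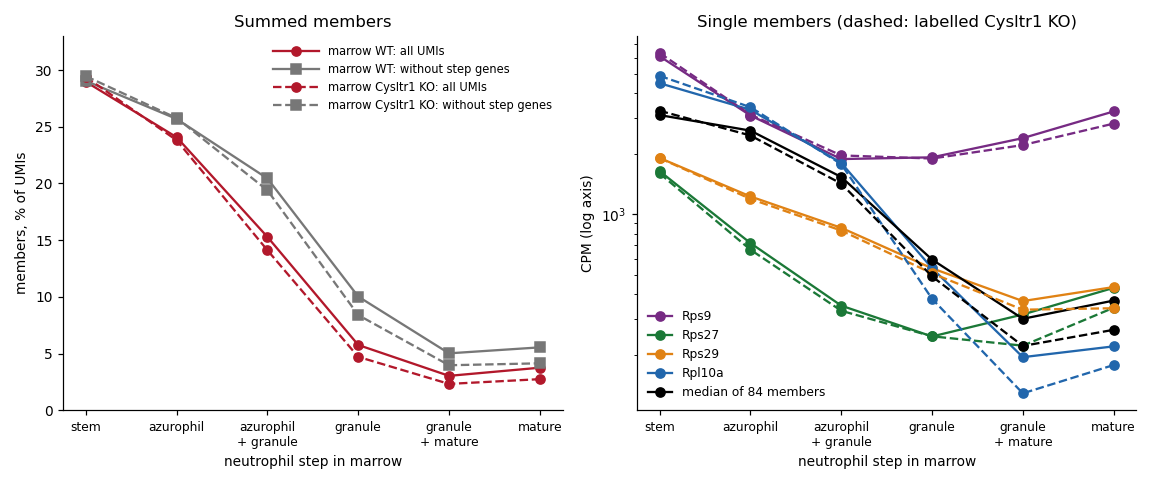
Left, share of UMIs from ribosomal protein genes (percent) at each step of neutrophil maturation in marrow, over all UMIs (red circles) and with the step genes left out (grey squares), solid for labelled WT and dashed for labelled Cysltr1 KO. Right, CPM on a log axis of 4 named members and the median of the 84; the red lines on the left go from 29.0% and 29.4% at the stem step to 3.76% and 2.75% at the mature step, and on the right Rps9 ends near its azurophil level while Rpl10a ends far below its own.

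At the granule step the ribosomal share was already low while cell-cycle genes were still abundant. The 12 listed genes of DNA replication and mitosis, such as Mki67 and Top2a, summed to 2522 CPM at the azurophil step and 2334 CPM at the granule step in the library labelled WT, while the ribosomal share went from 24.1% to 5.76%. In the library labelled Cysltr1 KO the cell-cycle sum went from 2438 to 1817 CPM. It was 197 and 127 CPM at the next step, with granule and mature markers.

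Spleen held few early neutrophil cells, but its later steps followed those of marrow. The share was 3.87% (350 cells) at the granule step and 2.62% (2185 cells) at the mature step labelled WT, and 3.71% (87 cells) and 2.50% (1018 cells) labelled Cysltr1 KO. Cells with both granule and mature markers stood lower than the mature step, at 1.96% (143 cells) labelled WT and 1.89% (16 cells) labelled Cysltr1 KO. In tumor the mature step stood at 7.63% and 7.24% (labelled WT first), so the higher tumor value of the gate was also seen at this step. The step and S100 genes held 10.2% and 7.89% of UMIs there, against 32.3% and 33.7% at the mature step of marrow. Without these genes the mature step stood at 8.49% and 7.86% in tumor, 5.55% and 4.15% in marrow, and 3.25% and 3.01% in spleen. The tumor value was thus still the highest, but by a smaller fold.

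Between the azurophil and the mature step of marrow, all 81 members within limits (at least 100 UMIs over both steps and a mean of at least 50 CPM) could be followed. At least 1.5-fold lower were 80 of 81 in each library, against 54.7% of all 2435 genes within limits labelled WT and 52.8% of 2428 labelled Cysltr1 KO. A 4-fold drop was reached by 76 of 81 members labelled WT (35.3% of all genes) and 78 of 81 labelled Cysltr1 KO (35.9%). None rose 1.5-fold, whereas 29.4% and 32.2% of all genes did. The members' median log2 ratio was -2.86 and -3.31, against -0.95 and -0.83 for all genes. The step and its markers were set without members, but the ratio of any gene shares 1 denominator with the members.

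**Figure D3:**
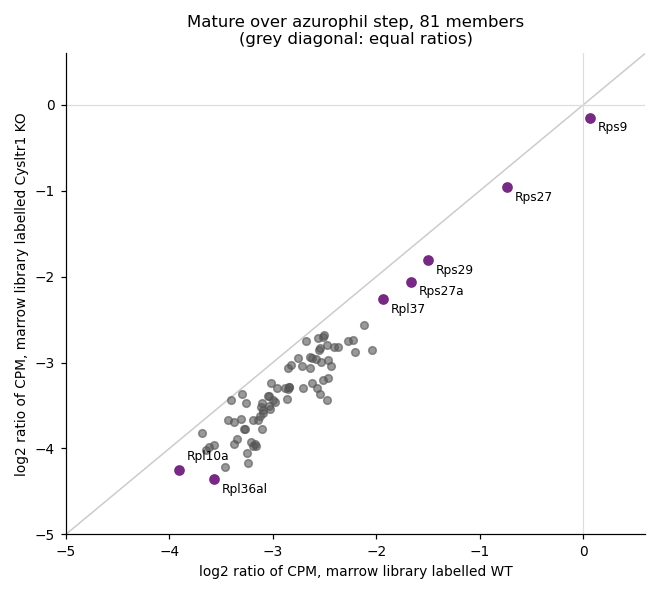
Log2 ratio of CPM, mature over azurophil step of marrow, for each of the 81 ribosomal protein genes within limits, labelled WT on the x axis and labelled Cysltr1 KO on the y axis. Rps9 lies near 0, Rps27 at -0.74 and -0.96, and the others between -1.50 and -4.36.

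Rps9, a small-subunit protein at the mRNA entry side of the ribosome, was the exception. Along the 6 marrow steps it stood at 6105, 3097, 1879, 1917, 2389 and 3245 CPM labelled WT, and at 6337, 3127, 1960, 1891, 2207 and 2822 CPM labelled Cysltr1 KO. It thus went down with the others from stem cells to cells with azurophil and granule markers, stood at about that level at the granule step, and was higher at each of the last 2 steps. The log2 ratio of the mature to the azurophil step was 0.07 (95% counting interval -0.003 to 0.14) and -0.15 (-0.20 to -0.10). In spleen Rps9 (chr7:3703993-3706897, plus strand) went from 1501 to 3506 CPM between the granule and the mature step, and from 1408 to 3226 CPM labelled Cysltr1 KO.

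The Rps9 gene ends 4511 bases from Pirb, a gene of an inhibitory myeloid receptor on the opposite strand. Pirb stood at 2.29 CPM at the azurophil step and 154 CPM at the mature step labelled WT, and at 2.01 and 175 CPM labelled Cysltr1 KO. On the other side of Rps9, and on its strand, lies Tsen34 (chr7:3692863-3701024). Tsen34 stood at 24.2 and 15.5 CPM at the azurophil and mature steps labelled WT, and at 23.7 and 24.5 CPM labelled Cysltr1 KO. The part of either neighbour in the UMIs given to Rps9 was not tested.

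Rps27, a small-subunit zinc-finger protein, fell least after Rps9. It went from 717 to 429 CPM (log2 ratio -0.74) and from 665 to 342 CPM (-0.96). Rps29, another small zinc-finger protein of that subunit, went from 1224 to 433 CPM (-1.50) and from 1190 to 340 CPM (-1.80). Rps27a, which is made as a fusion with ubiquitin, went from 7189 to 2271 CPM (-1.66) and from 7476 to 1797 CPM (-2.06). Rpl37 of the large subunit came next, with -1.93 and -2.26. Of the 5 genes that fell least, 4 were thus from the small subunit, in both libraries, as are 32 of all 84 members. Short members also fell less. The 9 with at most 300 coding nucleotides had median log2 ratios of -2.27 and -2.74, and the 25 over 600 had -3.05 and -3.47. Rps27, Rps29 and Rpl37 are among the short ones, Rps9 and Rps27a are not. The parts of subunit and length were not tested.

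At the other end stood genes of both subunits. Rpl10a went from 3306 to 220 CPM (-3.91) and from 3406 to 177 CPM (-4.26). Rps2, near the mRNA entry channel, went from 4614 to 367 CPM (-3.65) and from 4101 to 252 CPM (-4.02). Rpl36al, an autosomal copy of the X-linked Rpl36a, went from 1346 to 113 CPM (-3.57) and from 1303 to 62.7 CPM (-4.36). Beside Rpl10a and Rps2, the 5 largest falls labelled WT held Rps27l, Rpl14 and Rpl3, at -3.68, -3.62 and -3.57. Beside Rpl36al and Rpl10a, those labelled Cysltr1 KO included Rpsa and Rps20, at -4.21 and -4.17. Rpl10a was the only gene among the 5 largest falls in both libraries.

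Members with and without a pyrimidine run of 8 bases had fallen to about the same depth. The median log2 ratio was -2.86 in 31 members with a run and -2.98 in 30 without labelled WT, and -3.36 and -3.33 labelled Cysltr1 KO. Both sets spanned wide ranges, and Rps9 with the smallest fall had a run.

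In spleen most members were lower at the mature than at the granule step, a later part of the interval compared in marrow. At least 1.5-fold lower were 52 of 78 members labelled WT (22.1% of all genes within limits) and 48 of 77 labelled Cysltr1 KO (22% of all genes). The median log2 ratio of members was -0.89 and -0.84, against 0.53 and 0.65 over all genes. Rps27 and Rps9 were the 2 that rose 1.5-fold in each library, where 48.4% and 52% of all genes did. Rps27 went from 259 to 768 CPM and from 348 to 1041 CPM, and the log2 ratio of Rps9 was 1.22 and 1.20.

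Rps9, Rps27, Rps29 and Rps27a were grouped after their values were seen. They held 5.08% and 5.23% of members' UMIs at the azurophil step and 17.0% and 19.3% at the mature step of marrow. At the mature step of spleen they held 24.2% and 24.6%, and at that of tumor 7.37% and 6.21%, close to the early marrow value. All small-subunit genes together went from 46.7% to 52.3% of members' UMIs labelled WT and from 46.8% to 52.6% labelled Cysltr1 KO. Without the 4 genes that share went from 43.8% to 42.5% and from 43.9% to 41.3%. As the 4 are all of the small subunit and were picked for their small falls, leaving them out must lower that part, and nothing is read from it.

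Other genes of the translation system were also lower, by at least 1.5-fold, at the mature than at the azurophil step of marrow. Of all genes within limits 54.7% were lower labelled WT and 52.8% labelled Cysltr1 KO. Ribosome biogenesis factors, the nucleolar proteins that make and fold rRNA, were lower in 16 of 16 genes within limits labelled WT and 14 of 14 labelled Cysltr1 KO, with median log2 ratios of -3.46 and -3.69. The list of translation factors with TOP mRNAs also holds Rack1, a protein of the small subunit, and shares Npm1 with the biogenesis list. All 16 of its genes were lower in both libraries (-2.46 and -3.02). Among them Eef1a1, the main elongation factor, went from 4704 to 841 CPM and from 4636 to 606 CPM. Mitochondrial ribosomal proteins were lower in 41 of 43 and 40 of 41 genes (-2.82 and -3.25), and the 4 hosts of small nucleolar RNAs within limits were lower in both libraries. Cell-cycle genes were lower in 11 of 11 genes in both (-3.31 and -3.75).

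The same lists were counted between the granule and the mature step of spleen, with the same limit of 1.5-fold. Of all genes within limits 22.1% labelled WT and 22% labelled Cysltr1 KO were lower, and 48.4% and 52% were higher. Of 2 ribosome biogenesis factors within limits 0 were lower in either library. Of 12 genes listed as translation factors with TOP mRNAs, 5 were lower labelled WT and 6 labelled Cysltr1 KO. Mitochondrial ribosomal proteins were lower in 3 of 9 and 5 of 11 genes, and the 1 small nucleolar RNA host within limits was higher (log2 ratios 2.11 and 2.53). Cell-cycle genes were lower in 6 of 6 and 7 of 7 genes. The lists were not tested against other genes.

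Regulators of growth did not all follow between the azurophil and the mature step of marrow. Myc, a transcription factor that drives ribosome synthesis, had log2 ratios of -3.02 and -3.96, and Eif4e, the cap-binding factor, of -2.74 and -3.42. Mxd1, which opposes Myc at shared partners, was higher by 6.14 and 5.87, Max, that shared partner, by 2.54 and 2.38, and Eif4ebp1, an inhibitor of Eif4e, by 1.49 and 1.74. Fau, which encodes a ribosomal protein fused to a ubiquitin-like protein and lies outside the symbol rule, had log2 ratios of -0.98 and -1.16. Fau thus stood with Rps27 rather than with most members.

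Across the 42 groups of gate and library with at least 50 cells, most members kept close to their sum. A member's part of all members' UMIs varied 2.48-fold in the median between its highest and lowest group, 23 members varied under 2-fold and 10 at least 4-fold. Some of this spread is counting error, as neutrophil gates had few UMIs of each gene. Correlation with the other members' summed log2 CPM over the 42 groups, which share libraries and depth, was lowest for Rps27l (r = 0.64), Rps9 (0.65), Rps27 (0.69), Rpl7l1 and Rps29 (both 0.76). Rpl36al followed at 0.91, so 5 genes stood clear of the rest.

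Rps9 held 1.32% to 1.37% of members' UMIs in the azurophil gates and the plasma cells, a median of 2.07%, and 9.45% and 11.1% in mature neutrophils of marrow and 10.47% and 10.7% in those of spleen. Rps27 held 0.294% in azurophil cells labelled Cysltr1 KO and 3.69% in mature spleen neutrophils with that label, a 12.5-fold range. Its level was highest in lymphocytes, at 5007 and 6693 CPM in spleen T cells and 4437 and 5965 CPM in B cells, against 738 and 678 CPM in azurophil-stage cells. Rps29 had the same 2 groups at its ends, with 0.516% and 2.89%. Rpl12 and Rpl10a, both of the large subunit, had their lowest parts in mature spleen neutrophils, at 0.205% and 0.314%, and their highest in erythroid and stem cells of marrow labelled Cysltr1 KO, at 0.838% and 1.66%.

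**Figure D4:**
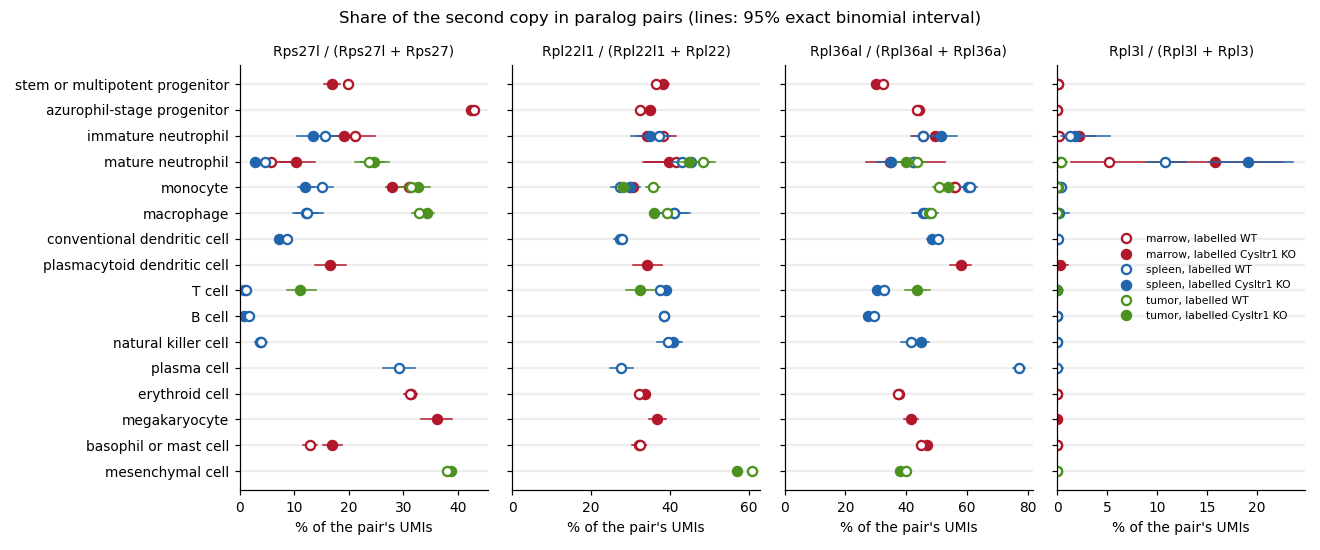
Part of the second copy in the UMIs of a paralog pair (percent), by gated cell type and library, for 4 pairs, with lines for exact 95% binomial intervals. Rps27l reaches 42.9% of its pair in azurophil-stage cells and 0.777% in spleen T cells, and Rpl22l1 passes 50% among these gates only in the tumor gate with mesenchymal markers.

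Several members have a second gene copy in the genome, and the copies differed by cell type. Rps27l, a p53-responsive copy of Rps27, made up 42.9% and 42.4% of the pair in azurophil-stage cells, 38.0% and 38.7% in tumor mesenchymal cells and 36.1% in megakaryocytes of marrow labelled Cysltr1 KO. In spleen it made up 1.09% and 0.777% in T cells and 1.60% and 0.725% in B cells. Along the marrow steps labelled WT it went 18.8%, 45.0%, 43.9%, 24.2%, 8.44% and 9.43%, so it was highest at the 2 steps with azurophil markers and lower at both ends. The steps labelled Cysltr1 KO gave 16.9%, 44.7%, 43.1%, 22.5%, 9.46% and 9.83%.

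Rpl22l1, a copy of Rpl22 that Rpl22 is known to repress, made up 60.8% and 57.0% of its pair in tumor mesenchymal cells and 27.2% to 48.4% in the other gates. At the mature step it stood at 51.7% in tumor and 50.8% in spleen labelled WT, and at 46.6% and 48.4% labelled Cysltr1 KO. Its level in the mesenchymal gate was 1581 CPM beside 1021 CPM of Rpl22 labelled WT, and 1353 beside 1022 CPM labelled Cysltr1 KO. Rpl36al made up 77.1% of its pair in plasma cells, 60.9% and 60.2% in spleen monocytes and 56.0% and 55.6% in marrow monocytes. In B cells, the precursors of plasma cells, it made up 29.3% and 27.4%. Rpl7l1 made up 1.62% and 1.46% of its pair in spleen T cells and 8.58% and 7.64% in tumor mesenchymal cells.

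Rpl3l, known as the heart and muscle form of Rpl3, passed 1% of its pair only in neutrophil gates of marrow and spleen. In mature neutrophils of spleen it made up 10.8% (105 UMIs, exact 95% interval 8.89% to 12.9%) and 19.1% (67 UMIs, 15.2% to 23.7%) of the pair, and in those of marrow 5.19% (4 UMIs) and 15.8% (24 UMIs). At the mature step of spleen the values were 19.96% and 30.2%. In that step Rpl3l stood at 16.8 and 24.4 CPM, and Rpl3 at 67.5 and 56.4 CPM, down from 203 and 139 CPM at the granule step. In tumor mature neutrophils labelled WT it was 0.403% (4 UMIs).

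Rpl3l (chr17:24727820-24736143, plus strand) ends 498 bases before Msrb1, a gene for a methionine sulfoxide reductase on the same strand. Msrb1 stood at 415 CPM at the azurophil step and 2860 CPM at the mature step of marrow labelled WT, at 3953 and 4291 CPM at the mature step of spleen, and at 1016 and 814 CPM at that of tumor. Within each label, the order of Rpl3l over the tissues at the mature step was the same. Across labels it was not, as marrow labelled Cysltr1 KO had 22.7 CPM of Rpl3l and 3127 CPM of Msrb1. Spleen labelled WT had 16.8 CPM of Rpl3l and 3953 CPM of Msrb1. From the stem to the azurophil step of marrow labelled WT, Msrb1 went from 71.4 to 415 CPM and Rpl3l from 1.56 to 0.358 CPM. The part of Msrb1 transcripts in the UMIs given to Rpl3l was not tested. Rpl39l, a testis form, stayed at or below 0.758% of its pair, a value that rests on 1 UMI. Rpl10l had 0 UMIs beside 69192 to 201248 UMIs of Rpl10 in each library, which allows a part of up to 0.00533% in the least covered one.

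The genes outside the rule whose level was most like that of the summed members over the 42 groups, of 2920 ranked, came mostly from translation. Rack1, a protein of the small subunit with another kind of name, had r = 0.983. It was followed by Gm10260 (0.981), a predicted gene, Naca (0.979), Eef1b2 (0.975), Eif3m (0.974), Eif3e (0.972), Eef1a1 (0.970), Trp53 (0.969), Snhg1 (0.968) and Eef1d (0.966). The groups share libraries and denominators, so these values are a ranking only.

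Between labelled genotypes, whole-library shares went in different directions, lower labelled Cysltr1 KO in marrow and tumor and higher in spleen, but cell types and depth differed as well. Equal numbers of cells were therefore drawn from both libraries of a tissue within each gate and each narrow range of UMIs per cell, for 19 gates with at least 50 cells drawn. The ratio of shares, labelled Cysltr1 KO over labelled WT, then lay between 0.9 and 1.1 in 15 of 19 gates. In spleen the whole-library ratio of 1.34 had no counterpart in the gates, of which 7 of 8 lay below 1, and only mature neutrophils at 1.02 lay above.

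**Figure D5:**
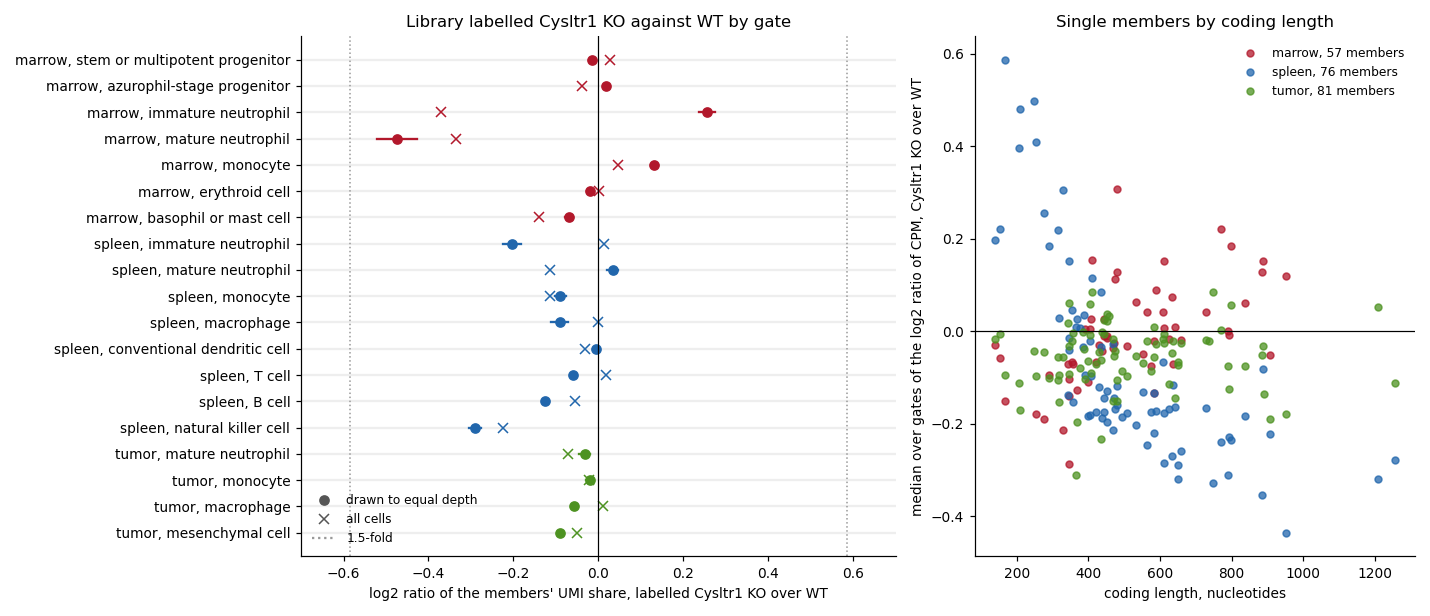
Left, log2 ratio of ribosomal protein share, library labelled Cysltr1 KO over WT, by gate and tissue, in cells drawn to equal depth (dots, with lines for 95% counting intervals) and in all cells (crosses). Right, median over gates of each member's log2 ratio by coding length (nucleotides) in each tissue, with spleen going from a median of 0.40 in members of at most 300 nucleotides to -0.24 in those over 600.

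The gates furthest from 1 were marrow mature neutrophils (3.20% labelled WT, 2.30% labelled Cysltr1 KO, ratio 0.720, 81 cells each), spleen natural killer cells (17.6% and 14.4%, 0.817, 122 cells each), marrow immature neutrophils (4.32% and 5.16%, 1.19, 127 cells each) and spleen immature neutrophils (4.15% and 3.60%, 0.869, 58 cells each). Marrow monocytes followed (16.3% and 17.8%, ratio 1.096), then spleen B cells (27.4% and 25.2%, 0.917). With all cells in place of drawn ones, 11 of 19 gates lay on the same side of 1, and marrow immature neutrophils changed sides (5.17% and 4.003%). Drawing by depth also changed which maturation steps a gate held. In the drawn mature gate of marrow, cells with granule as well as mature markers made up 42.0% labelled Cysltr1 KO and 4.94% labelled WT. In the drawn immature gate of marrow, cells of the granule step made up 78.7% and 63.0% in that order.

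Cells were therefore also drawn within steps, an approach chosen after these values were seen. The ratio was then 0.988 in stem, 1.04 in azurophil, 0.943 in azurophil and granule, 1.13 in granule, 0.966 in granule and mature, and 0.706 in mature cells of marrow (4.15% and 2.93%, 78 cells each). The azurophil markers averaged 0.259% of a cell's UMIs in that last group labelled WT and 0.106% labelled Cysltr1 KO. At the granule and mature step (56 cells each) these markers averaged 0.128% and 0.0526%. The part of azurophil RNA in the result was not tested. In spleen the ratio was 0.845 in granule and 0.959 in mature cells, and in tumor 0.954 in mature cells.

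Single members rarely differed 1.5-fold between labels. Of 1497 pairs of member and gate within limits, 8 were higher labelled Cysltr1 KO (3.9% of all gene and gate pairs) and 36 lower (3.25%), and 45 of 81 members passed in no gate. With all cells in place of drawn ones 23 pairs were lower. In marrow mature neutrophils 21 of 57 members were lower, where 11.1% of all genes were. In spleen immature neutrophils 7 of 78 were lower (4.9% of all genes), and in spleen natural killer cells 7 of 79 (3.66% of all genes), with Rplp0, a protein of the ribosomal stalk, at 4030 and 2506 CPM. Rplp0 was also the only member lower in spleen mature neutrophils (722 and 459 CPM, with 2.17% of all genes lower). In marrow immature neutrophils 3 of 79 members were higher (Rps27l, Rpsa and Rpl14), where 8.83% of all genes were. Cell-cycle genes were higher there in 7 of 9 genes (median log2 ratio 0.68), and their part and that of the differing steps was not tested. Rps28 was higher in spleen mature neutrophils (156 and 248 CPM).

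Rps29 was the only member past 1.5-fold in the same direction in at least 3 gates. In drawn spleen cells it went from 557 to 843 CPM in immature neutrophils, where 1.63% of all genes were 1.5-fold higher, from 550 to 863 in mature neutrophils (6.69%), from 1775 to 2854 in monocytes (6.35%) and from 1939 to 3034 in macrophages (8.71%). It was also higher in conventional dendritic cells (2713 and 3725), T cells (4036 and 6025), B cells (3299 and 4533) and natural killer cells (1812 and 2564). The spleen ratios thus ran from 1.37 to 1.61 in 8 of 8 gates, whereas those of marrow ran from 0.751 to 1.07 and those of tumor from 0.896 to 1.005. Among 567 genes within limits in all spleen gates, Rps29 and Ndufa3, a small subunit of respiratory complex I, were the 2 at least 1.3-fold higher in every one.

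Other members with short coding sequences stood near Rps29 in spleen. The median ratio over gates was 1.502 for Rps29 (168 coding nucleotides), 1.41 for Rps21 (249), 1.40 for Rpl38 (210), 1.33 for Rps27 (252) and 1.32 for Rps28 (207). At the other end it was 0.740 for Rplp0 (951) and 0.783 for Rpsa (885). All 9 members of at most 300 nucleotides lay above 1, as did 11 of 44 members from there to 600 and 0 of 23 over 600, and Spearman's rho with coding length was -0.83 over 76 members.

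The order was the opposite or absent in the other tissues. In marrow 0 of 6 short members and 12 of 18 long ones lay above 1 (rho 0.62 over 57 members), and in tumor 0 of 9 and 4 of 25 (rho 0.04 over 81 members). Among other genes of spleen rho was 0.02 over 481 genes and -0.30 over the 250 with at most 800 coding nucleotides. There 39 of 54 short genes lay above 1, with a median log2 ratio of 0.0966 against 0.0153 over all 481. In marrow rho was -0.13 over 240 other genes and 0.05 over the 142 within 800 nucleotides. In tumor it was -0.17 over 1540 and 0.04 over 651. Short genes above 1 were 11 of 21 in marrow and 36 of 88 in tumor. Each label in spleen is 1 library, so the genotype and the library cannot be told apart. The part of coding length and of the transcript end that was read was not tested.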

How the data were processed

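The deposited values for 6 single-cell libraries are UMI counts per gene and barcode, and per the file headers Cell Ranger 6.1.0 wrote them. Build mm10 and Cell Ranger 6.0.0 are given per the submitters' processing notes. Since the labels list a kit for each transcript end, which end was read is not settled. Total counts were 40377940 to 75873784 UMIs a library. Barcodes with at least 500 UMIs, at least 300 genes and at most 10% mitochondrial UMIs were kept. Doublets were scored against simulated ones (2000 genes, 30 components), and the highest scores were removed at 0.8% per 1000 barcodes.

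The authors' deposited files hold no cell types, so gates of at least 3 markers were used, and steps of at least 1% of UMIs from a marker list. Gate and step thresholds were set with the data in view, and the members, lists and markers were chosen with earlier results of these data known. UMIs were summed by library and gate into CPM, with a pseudocount of 1 CPM in log2 ratios. Genes needed 100 UMIs over both groups and a mean of 50 CPM. Cells were drawn within depth bins of 0.25 log2 units. With 1 library a group no test was made; exact 95% binomial or Poisson intervals cover counting error only.

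Named genes were those with the largest spread over groups, both copies of each paralog pair, the 5 largest and 5 smallest falls between the azurophil and mature steps, genes past 1.5-fold between labels in at least 3 gates, and the 10 genes most like the sum. Positions and coding lengths came from the GENCODE annotation of mm10 by gene ID (84 of 84 matched), promoters from RefSeq (64 of 84). The ratio and thinning steps were tested on simulated data. A sum with further gene rows added and some single genes are not reported here. The other alternatives are given in the closing section; keeping doublets, leaving step genes out of the total, a second draw and drawing within steps were chosen after seeing the data. Python 3.11.15, numpy 2.4.6, pandas 2.3.3, scipy 1.17.1 and scikit-learn 1.9.0 were used.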

Additional observations from a re-analysis of the deposited data

Results flagged for a closer look

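The ribosomal protein share of a whole library, labelled Cysltr1 KO over WT, was 0.921 in marrow, 1.34 in spleen and 0.960 in tumor. It was picked out because the tissues went in opposite directions, and with 1 library a group the difference was not tested. Mature neutrophils, which have low shares, were 2352 of 8319 kept cells in spleen labelled WT and 1081 of 7712 labelled Cysltr1 KO.

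The median ratio of Rps29 over gates was 0.901 in marrow, 1.502 in spleen and 0.937 in tumor, again in opposite directions and not tested.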

How the results depend on the processing

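Whole-library shares, given in the order marrow labelled WT and Cysltr1 KO, spleen, tumor, were 23.9%, 22.4%, 19.9%, 25.01%, 20.6% and 19.7% without abundant genes in the total. They were 22.8%, 20.9%, 17.6%, 23.6%, 20.9% and 19.8% with a mitochondrial limit of 5%. With at least 1000 UMIs a cell the last 5 were 20.9%, 17.6%, 23.5%, 20.3% and 19.4%. With doublets kept, marrow had 22.5% and 20.7%, spleen labelled Cysltr1 KO 23.4%, and tumor 20.1% and 19.3%.

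The ratio of the highest gate to mature neutrophils was 9.84, 12.4, 9.70, 10.6, 2.62 and 2.68 in the same order. It was 7.19, 9.06, 8.22, 9.25, 2.46 and 2.56 without abundant genes, and 8.64, 7.90, 7.06, 8.42, 2.66 and 2.55 with doublets kept. One more marker gave 10.1 and 11.6 in spleen and 2.70 and 2.87 in tumor. A limit of 5% gave 10.2 in marrow labelled WT and 2.72 and 2.75 in tumor. At least 1000 UMIs gave 12.6 in marrow labelled Cysltr1 KO and 2.72 and 2.76 in tumor.

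The fold between azurophil and mature steps of marrow (6.40 and 8.66) was 4.78 and 6.41 without abundant genes, 4.63 and 6.22 without step genes, 5.73 and 6.46 with doublets kept, 6.22 and 8.55 with cells thinned to 1000 UMIs, and 6.69 and 8.77 with at least 1000 UMIs. Labelled WT it was 6.64 with the limit of 5% and 7.003 with one more marker.

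The median log2 ratio over gates between labels (-0.01 in marrow, -0.09 in spleen and -0.04 in tumor) was -0.0375 in marrow and -0.0432 in spleen with all cells, -0.0525, -0.0703 and 0.00489 when thinned, -0.111 in spleen and -0.0583 in tumor in another draw, -0.0357 in spleen and -0.0681 in tumor with one more marker, and -0.0246 in marrow and -0.0658 in tumor without abundant genes. Thinning thus changed the sign in tumor. Gates on the same side of 1 numbered 11 of 19 with all cells, 10 of 19 when thinned, 18 of 19 with one more marker and without abundant genes, and 19 of 19 in another draw. The count of member and gate pairs that were lower went from 36 to 23 with all cells. Of the other values, 74 moved beyond their counting interval and 57 did not. The causes were not tested.

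The labels give no replicate numbers. The libraries pair by tissue, and a fit of genotype with tissue as a block, which 3 pairs would allow, was not made. No replicate was left out, since each tissue and genotype had 1 library. Depth limits the neutrophil gates most: a mature marrow cell held a median of 119 and 46 ribosomal protein UMIs, so single members there rest on few UMIs, and differences between the labelled libraries have no replicate check.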
